A study of Mus musculus with 4 samples.

Results

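The 9 genes described here encode 7 proteins that build the peroxisome (Pex3, Pex5, Pex11a, Pex13, Pex14, Pex16 and Pex19), its most familiar enzyme (Cat, catalase) and a transporter of its membrane (Abcd3, also called PMP70). They were chosen by symbol, each was found in a single row of the expression table, and together they are 9 of 13085 genes measured. Their transcripts were measured by RNA-seq at day 8 of differentiation in 4 stable lines made from 3T3-L1, a murine preadipocyte line that turns into lipid-laden adipocytes under a hormone mixture. The line FLAG-CACUL1 makes extra CACUL1 from a FLAG vector, and its control, FLAG, holds that vector without an insert. CACUL1 was depleted by a hairpin RNA in the line sh-CACUL1, whose control, sh-Luc, expresses a hairpin against luciferase. All 4 lines, controls included, were induced at confluence with 5 μM rosiglitazone (a ligand of PPARγ), 0.5 mM IBMX (which slows cAMP breakdown), dexamethasone at 1 μg/mL and insulin at 5 μg/mL, and were then kept in insulin alone. FLAG vectors were selected with G418 and hairpin vectors with hygromycin B, and whether a line was 1 clone or a mixture of resistant colonies is not given in the sources used here. Each line was sequenced as 1 library, so no difference below has a replicate check and no test was made.

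Peroxisomes break down very long and branched fatty acids, start the synthesis of ether lipids and detoxify the hydrogen peroxide that their oxidases release. Their membrane proteins are inserted with the help of PEX3, PEX16 and the cytosolic chaperone PEX19. Matrix enzymes such as catalase are folded in the cytosol, bound by the receptor PEX5 and passed through a docking complex that contains PEX13 and PEX14, while PEX11 proteins elongate the membrane before the organelle divides. Peroxisomes multiply when preadipocytes become adipocytes, and Pex11a and Cat are known targets of PPAR receptors.

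Values are FPKM, the number of fragments scaled to transcript length and to the fragments mapped in the library, as deposited by the authors. Levels can therefore be compared between genes of the same library. Comparisons between lines also depend on the scaling between libraries. The summed FPKM of a library ranged from 372148 in sh-CACUL1 to 473584 in FLAG-CACUL1. The number of fragments was not stated, but FPKM multiplied by transcript length fell on regular steps, from which depths between 14300000 fragments (FLAG-CACUL1) and 24000000 fragments (sh-Luc) were estimated. From these depths each of the 9 genes was covered by an estimated 185 to 4310 fragments per library. The 95% intervals given with each fold are exact binomial intervals on these estimates and cover counting error only. Cacul1 itself was at 9.61 FPKM in FLAG and 11.8 FPKM in FLAG-CACUL1, and went from 10.2 FPKM in sh-Luc to 5.39 FPKM in sh-CACUL1. All 7 adipocyte markers examined (Adipoq, Fabp4, Plin1, Cfd, Lpl, Cidec and Retn) were lower with CACUL1 overexpression and higher with its depletion, by 2-fold or more each time. Their summed level was 8358 FPKM in FLAG, 870 FPKM in FLAG-CACUL1, 1673 FPKM in sh-Luc and 17561 FPKM in sh-CACUL1. The summed level of 7 preadipocyte or fibroblast markers (Dlk1, Col1a1, Col3a1, Thy1, Vim, S100a4 and Pdgfra) ranged from 1586 FPKM in sh-CACUL1 to 9688 FPKM in FLAG-CACUL1. The 7 did not move alike. In sh-CACUL1 5 were at least 2-fold below sh-Luc and 2 at least 2-fold above it. These 2 were Dlk1 (0.220 FPKM in sh-Luc, 21.2 FPKM in sh-CACUL1) and Thy1 (0.663 and 34.3 FPKM). In FLAG-CACUL1 3 were at least 2-fold above FLAG and 1, Dlk1, at least 2-fold below it. Of 4 macrophage markers 2 were measured, and their sum was 16.8 FPKM in FLAG, nearly all from Cd68, and between 1.08 and 1.84 FPKM elsewhere. The endothelial marker Pecam1 was at or below 0.301 FPKM in every line.

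The 9 genes fell into 2 kinds of pattern. In Pex5, Pex11a, Pex13, Pex14, Pex16 and Pex19 both FLAG and sh-CACUL1 lay above both FLAG-CACUL1 and sh-Luc, an arrangement found in 6 of the 9 genes and in 9.93% of all genes measured. In Pex3, Abcd3 and Cat the lowest value was in FLAG and the highest in sh-CACUL1, although FLAG-CACUL1 fell below FLAG for Pex3 under both other scalings tried (quantile and median-of-ratios) and for Cat under the latter. FLAG was above FLAG-CACUL1 in 6 of the 9 genes (41.3% of all genes). Across all 9 genes sh-CACUL1 exceeded sh-Luc (31.3% of all genes did so), and sh-CACUL1 was the highest of the 4 lines for 7 of them (18.8% of all genes). The marker sums of adipocytes had the same arrangement as the first 6 genes, and their part in these differences was not tested. In such bulk samples fewer adipocytes and less RNA per adipocyte cannot be told apart.

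**Figure D1:**
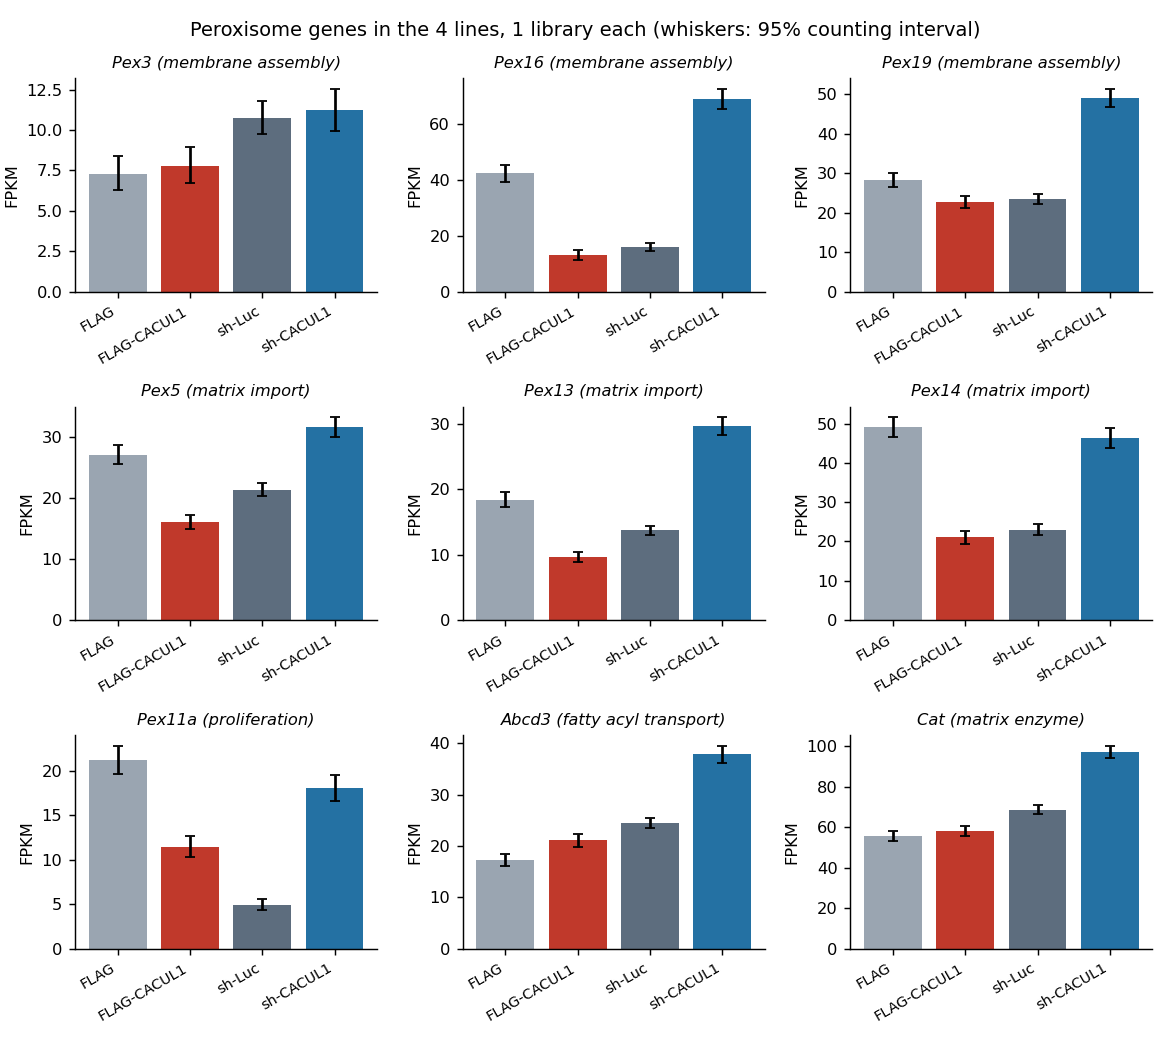
FPKM (y axis, linear from 0) of each of the 9 peroxisome genes in the 4 lines (x axis), 1 library per line; whiskers are 95% Poisson intervals on the estimated fragment number and show counting error only. Pex16, Pex13, Pex14, Pex5, Pex19 and Pex11a are higher in FLAG and sh-CACUL1 than in the other lines, whereas Cat, Abcd3 and Pex3 are lowest in FLAG as deposited, which for Cat and Pex3 does not hold under median-of-ratios scaling.

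Among the membrane assembly genes, Pex16 differed most. Its product sits in the membrane and recruits PEX3, and the gene lies at chr2:92374676-92381217 of GRCm38 on the plus strand. Pex16 had 42.4 FPKM in FLAG, 13.0 FPKM in FLAG-CACUL1, 15.9 FPKM in sh-Luc and 69.0 FPKM in sh-CACUL1. FLAG-CACUL1 and sh-Luc were thus low, and FLAG and sh-CACUL1 were high. It was 3.25-fold below FLAG in FLAG-CACUL1 (95% interval 2.81 to 3.78), a log2 ratio of FPKM + 1 of -1.63, and 2.76% of all genes were lower by as much. In sh-CACUL1 it was 4.33-fold higher than in sh-Luc (3.90 to 4.82), a log2 ratio of 2.05 that 0.963% of all genes reached. Neighbouring lines in the order of its levels all differed beyond counting error, and the closest were sh-Luc and FLAG-CACUL1, at 1.22-fold (1.04 to 1.43). GENCODE M21 places 127 of its 1775 exonic bases over exons of Large2 on the other strand, and whether the authors counted by strand is not given in the sources used here.

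Pex19, at chr1:172126755-172136493 on the plus strand, encodes the chaperone that carries membrane proteins to PEX3. It had 28.3 FPKM in FLAG, 22.7 FPKM in FLAG-CACUL1, 23.6 FPKM in sh-Luc and 49.1 FPKM in sh-CACUL1. The line with depleted CACUL1 stood above the other lines, which lay close together. Pex19 was 2.08-fold above sh-Luc in sh-CACUL1 (1.94 to 2.24) and 1.25-fold below FLAG in FLAG-CACUL1 (1.13 to 1.37). FLAG-CACUL1 and sh-Luc could not be told apart by counting error, at 1.04-fold (0.950 to 1.14).

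Pex3, at chr10:13523842-13553142 on the minus strand, encodes the membrane receptor for PEX19 and was the least abundant of the 9 genes in FLAG, FLAG-CACUL1 and sh-CACUL1. It had 7.29 FPKM in FLAG, 7.80 FPKM in FLAG-CACUL1, 10.7 FPKM in sh-Luc and 11.2 FPKM in sh-CACUL1. Both FLAG lines were lower than both hairpin lines, and within each vector the values lay within counting error. The fold was 1.07 (0.869 to 1.31) for FLAG-CACUL1 over FLAG and 1.04 (0.898 to 1.21) for sh-CACUL1 over sh-Luc. The latter depended on scaling, with a log2 ratio of 0.06 as deposited, 0.52 after quantile normalization and 0.47 with median-of-ratios scaling. Exons of Adat2 on the opposite strand share 249 of its 4740 exonic bases. The ratio of Pex16 to Pex3 within a library was 5.82 in FLAG and 6.16 in sh-CACUL1, against 1.67 in FLAG-CACUL1 and 1.48 in sh-Luc.

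The 3 matrix import genes all had FLAG-CACUL1 below FLAG and sh-CACUL1 above sh-Luc. Pex5, the receptor for most matrix enzymes, lies at chr6:124396816-124415067 on the minus strand. It had 27.1 FPKM in FLAG, 16.1 FPKM in FLAG-CACUL1, 21.4 FPKM in sh-Luc and 31.7 FPKM in sh-CACUL1, all 4 values differing beyond counting error from the next. It was 1.69-fold below FLAG in FLAG-CACUL1 (1.54 to 1.85) and 1.48-fold above sh-Luc in sh-CACUL1 (1.38 to 1.59), both under 2-fold. Pex13, at chr11:23646479-23665959 on the minus strand, encodes a membrane-spanning part of the docking complex. Its level was 18.4 FPKM in FLAG, 9.63 FPKM in FLAG-CACUL1, 13.7 FPKM in sh-Luc and 29.6 FPKM in sh-CACUL1. The highest and lowest lines were thus the knockdown and the overexpression, with the controls between them. Pex13 was 1.91-fold below FLAG in FLAG-CACUL1 (1.72 to 2.11) and 2.17-fold above sh-Luc in sh-CACUL1 (2.02 to 2.32).

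Pex14, at chr4:148960535-149099876 on the minus strand, encodes the docking protein to which loaded PEX5 binds. It had 49.1 FPKM in FLAG, 21.0 FPKM in FLAG-CACUL1, 23.0 FPKM in sh-Luc and 46.3 FPKM in sh-CACUL1. FLAG and sh-CACUL1 did not differ beyond counting error (1.06-fold, 0.983 to 1.14), nor did sh-Luc and FLAG-CACUL1 (1.09-fold, 0.990 to 1.21). It was 2.33-fold below FLAG in FLAG-CACUL1 (2.12 to 2.57) and 2.01-fold above sh-Luc in sh-CACUL1 (1.86 to 2.18). On the log2 scale of FPKM + 1 the second difference was 0.98, just short of 2-fold. The antisense gene Gm17029 shares 1776 of the 6272 exonic bases of Pex14, so that reads from either could be counted for Pex14 if strand was not used. The ratio of receptor to docking protein, Pex5 over Pex14, was lowest in FLAG, at 0.553, followed by 0.684 in sh-CACUL1, 0.765 in FLAG-CACUL1 and 0.930 in sh-Luc.

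Pex11a, at chr7:79735957-79743131 on the minus strand, encodes the inducible member of the PEX11 proteins. It had 21.2 FPKM in FLAG, 11.4 FPKM in FLAG-CACUL1, 4.94 FPKM in sh-Luc and 18.0 FPKM in sh-CACUL1. Here sh-Luc, not FLAG-CACUL1, was the lowest line, and FLAG was the highest. Pex11a was 1.86-fold below FLAG in FLAG-CACUL1 (1.63 to 2.11) and 3.65-fold above sh-Luc in sh-CACUL1 (3.15 to 4.23). The controls differed by 4.29-fold (3.71 to 4.96), more than either comparison with CACUL1. Its paralog Pex11g had the arrangement of the 6 genes above, at 12.8, 2.97, 4.50 and 15.5 FPKM in the same order.

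Abcd3, at chr3:121758774-121815302 on the minus strand, encodes an ABC transporter that carries fatty acyl-CoA into the peroxisome. It had 17.2 FPKM in FLAG, 21.1 FPKM in FLAG-CACUL1, 24.4 FPKM in sh-Luc and 37.9 FPKM in sh-CACUL1. Both lines with a CACUL1 construct exceeded their own control, by 1.22-fold in FLAG-CACUL1 (1.12 to 1.34) and by 1.55-fold in sh-CACUL1 (1.46 to 1.65). Cat, at chr2:103453849-103485160 on the minus strand, encodes catalase, which splits hydrogen peroxide into water and oxygen. It was the most abundant of the 9 genes in every line, with 55.6 FPKM in FLAG, 58.2 FPKM in FLAG-CACUL1, 68.6 FPKM in sh-Luc and 97.1 FPKM in sh-CACUL1. FLAG-CACUL1 did not differ from FLAG beyond counting error, at 1.05-fold (0.986 to 1.11), and sh-CACUL1 was 1.42-fold higher than sh-Luc (1.35 to 1.48). Cat spanned 1.75-fold from its lowest to its highest line, and 72.8% of the 9563 genes with at least 1 FPKM in all lines spanned as much or more. Pex16 spanned 5.29-fold, which 8.88% of these genes reached, and Pex11a 4.29-fold, which 12.8% reached.

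Against the empty vector, 2 of the 9 genes, Pex14 and Pex16, were at least 2-fold lower on the FPKM + 1 scale in FLAG-CACUL1 (7.22% of all genes), and 0 of the 9 were at least 2-fold higher (7.51% of all genes; 14.7% were past 2-fold either way). The median log2 ratio of the 9 genes was -0.72, with a range from -1.63 to 0.27, whereas the median of all genes was 0.09. Against the luciferase hairpin, 4 of the 9 genes were past the 2-fold mark in sh-CACUL1, namely Pex11a, Pex13, Pex16 and Pex19, and all 4 were higher (4.94% of all genes were), and 0 of the 9 were lower to that degree (16.4%; 21.3% either way). Their median log2 ratio was 0.98, with a range from 0.06 to 2.05, and the median of all genes was -0.30. The scaling between libraries set part of these numbers. With median-of-ratios scaling the median of all genes was near 0 in both comparisons, and the 9 genes had medians of -0.87 and 1.41. Of the 9, 3 were then at least 2-fold lower in FLAG-CACUL1, with Pex13 added at -1.01 (9.07% of all genes), and 6 exceeded sh-Luc by 2-fold or more in sh-CACUL1, with Pex14 added at 1.41 and Abcd3 at 1.05 (9.06% of all genes). Relative to the median of all genes as deposited, the 9 genes stood at -0.81 and 1.28. With median-of-ratios scaling 736 genes of the whole table were at least 2-fold higher and 1187 lower in FLAG-CACUL1, against 983 and 945 as deposited. In sh-CACUL1 they numbered 1186 and 1016, against 647 and 2141. Pex3 and Cat, at log2 ratios of 0.09 and 0.07 in FLAG-CACUL1 as deposited, stood at -0.05 and -0.09 with median-of-ratios scaling. The other 7 genes kept their sign in both comparisons.

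**Figure D2:**
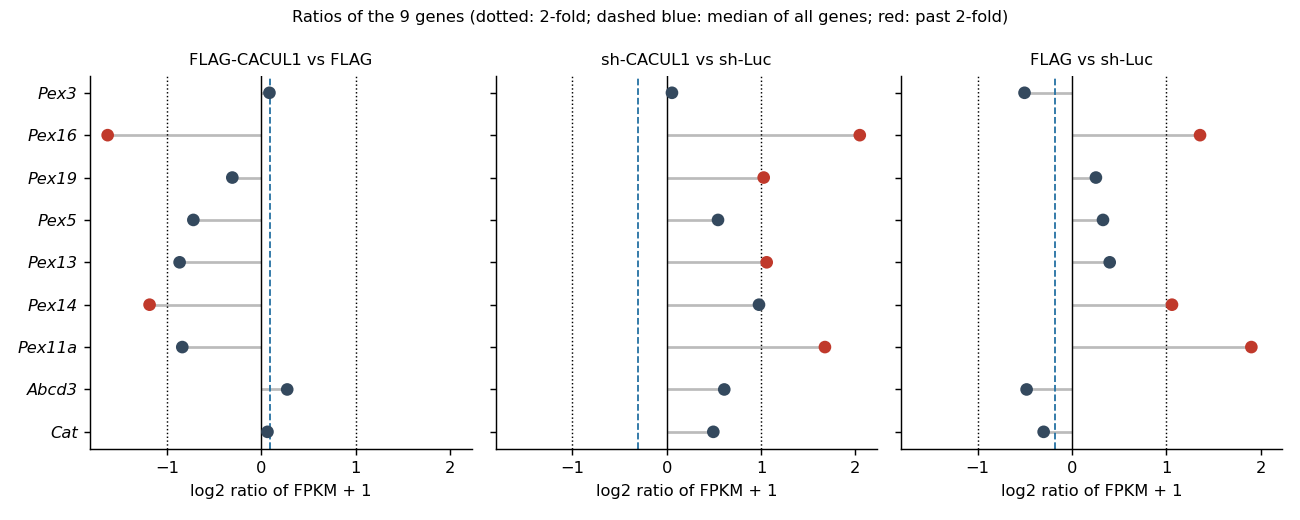
Log2 ratio of FPKM + 1 (x axis) of the 9 genes (y axis) for FLAG-CACUL1 over FLAG, sh-CACUL1 over sh-Luc and the FLAG control over the sh-Luc control, 1 library per line; dotted lines mark 2-fold, the dashed line is the median of all 13085 genes and red points are past 2-fold. The peroxins other than Pex3 lie left of 0 in the first panel and right of 0 in the others; the small ratios of Pex3 and Cat in the first panel change sign under median-of-ratios scaling.

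FLAG and sh-Luc, the lines with no CACUL1 construct, have unlike vectors and selection drugs, and these genes differed between them as well. Pex11a, Pex14 and Pex16 were at least 2-fold higher in FLAG than in sh-Luc (8.58% of all genes), with log2 ratios of 1.90, 1.06 and 1.36, and 0 of the 9 were at least 2-fold lower (12.4%; 21.0% either way). Median-of-ratios scaling put 1574 genes of the whole table at least 2-fold higher and 931 lower, against 1123 and 1627 as deposited. With sh-Luc as the control of FLAG-CACUL1, 1 of the 9 genes was past 2-fold, Pex11a, and it was higher, by 2.31-fold (1.97 to 2.72; 5.04% of all genes were at least 2-fold higher and 4.87% lower). The other 8 had values below sh-Luc, with Pex16 at a log2 ratio of -0.27, while Pex14 and Pex19 lay within counting error of it. When sh-CACUL1 was set against FLAG, 1 of the 9 was past 2-fold, Abcd3, at 2.20-fold higher (2.03 to 2.38; 7.45% of all genes were at least 2-fold higher and 15.4% lower). Pex16 was 1.63-fold higher (1.49 to 1.78), Pex13 1.61-fold and Pex19 1.74-fold (1.60 to 1.88), while Pex11a was 1.18-fold lower (1.05 to 1.31). The direction in sh-CACUL1 therefore held with either control for 7 of the 9 genes, Pex11a and Pex14 being the exceptions, the latter within counting error. Of those 7, Pex3 lay within counting error of sh-Luc (1.04-fold, 0.898 to 1.21), so its direction there is not established. The share of all genes that kept their direction with either control was not computed. These comparisons share libraries with those above and are not independent of them. An effect of CACUL1 and a difference between the control lines cannot be told apart with 1 library per line.

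Ratios within a library do not depend on a single scaling factor per library, although quantile normalization would alter them. Relative to Cat, Pex16 stood at 0.764 in FLAG and 0.711 in sh-CACUL1 but at 0.224 in FLAG-CACUL1 and 0.232 in sh-Luc. Pex13 had ratios of 0.331 and 0.305 in the first pair and 0.165 and 0.199 in the second. Pex11a varied most, from 0.0719 in sh-Luc to 0.381 in FLAG, a span of 5.30-fold. Abcd3 kept a ratio to Cat between 0.310 and 0.390, a span of 1.26-fold, and Pex3 one between 0.115 and 0.157. Of the summed FPKM of the 9 genes, the 6 genes with the first pattern made up 70.0% in FLAG and 62.5% in sh-CACUL1, against 51.9% in FLAG-CACUL1 and 49.7% in sh-Luc. Because the 6 genes were grouped by these same levels, their larger share in FLAG and sh-CACUL1 follows largely from the grouping. The ratios to Cat describe how these 6 genes and Cat differed unequally between lines, not which of them changed.

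**Figure D3:**
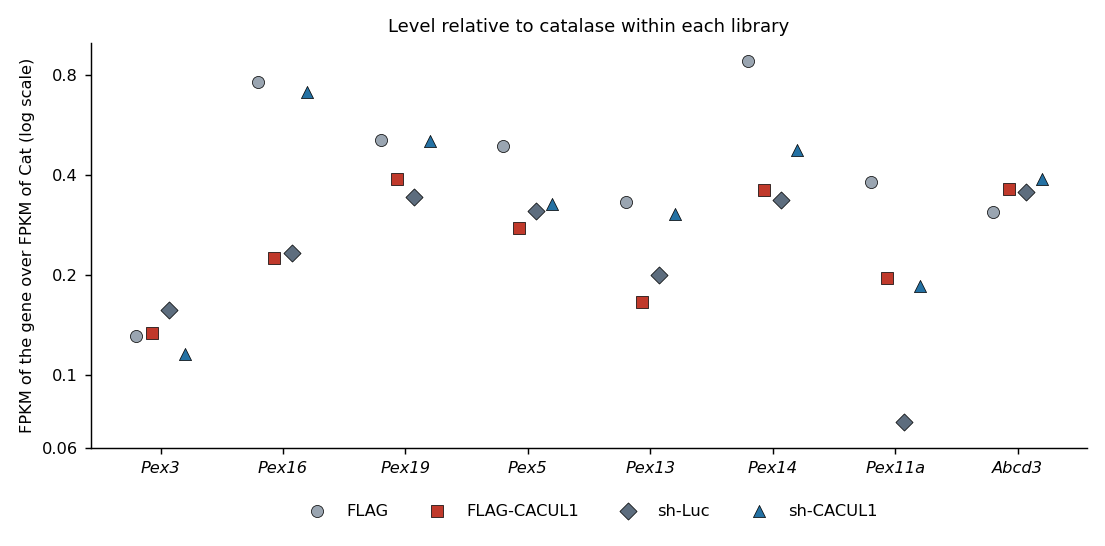
FPKM of 8 genes (x axis) divided by the FPKM of Cat in the same library (y axis, log scale), 1 point per line. For Pex16, Pex13, Pex14, Pex5 and Pex19 the FLAG and sh-CACUL1 points lie above the FLAG-CACUL1 and sh-Luc points, while those of Abcd3 lie between 0.310 and 0.390.

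The 300 bases around the transcription start (250 before and 50 after, from RefSeq on GRCm38.p6, written on the strand of the gene) are shown for the 3 genes that spanned most across the lines and for Cat, which had a different pattern. Capitals mark the CCAAT box (CCAAT), the GC box (GGGCGG), the core AGGTCA to which many nuclear receptors bind, the ETS motif CCGGAA and the cAMP response element TGACGTCA, on either strand.
Pex16 (chr2:92374426-92374725, plus strand): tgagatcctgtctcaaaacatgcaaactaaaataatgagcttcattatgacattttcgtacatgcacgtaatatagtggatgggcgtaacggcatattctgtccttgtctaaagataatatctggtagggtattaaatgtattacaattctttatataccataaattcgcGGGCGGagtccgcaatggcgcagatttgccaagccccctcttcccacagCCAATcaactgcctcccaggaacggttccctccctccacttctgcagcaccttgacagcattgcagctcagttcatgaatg
Pex11a (chr7:79743082-79743381, minus strand): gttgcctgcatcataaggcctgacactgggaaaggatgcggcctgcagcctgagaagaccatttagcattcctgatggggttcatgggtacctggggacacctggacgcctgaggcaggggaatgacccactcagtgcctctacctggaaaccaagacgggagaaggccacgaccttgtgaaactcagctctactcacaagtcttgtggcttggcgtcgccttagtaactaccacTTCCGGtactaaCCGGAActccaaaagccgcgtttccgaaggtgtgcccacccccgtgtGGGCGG
Pex13 (chr11:23665834-23666133, minus strand): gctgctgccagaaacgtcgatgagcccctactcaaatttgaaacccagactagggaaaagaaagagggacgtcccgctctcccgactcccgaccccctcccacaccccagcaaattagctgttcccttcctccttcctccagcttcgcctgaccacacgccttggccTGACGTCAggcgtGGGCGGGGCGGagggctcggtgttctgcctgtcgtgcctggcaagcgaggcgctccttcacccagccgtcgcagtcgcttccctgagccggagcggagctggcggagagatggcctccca
Cat (chr2:103485104-103485403, minus strand): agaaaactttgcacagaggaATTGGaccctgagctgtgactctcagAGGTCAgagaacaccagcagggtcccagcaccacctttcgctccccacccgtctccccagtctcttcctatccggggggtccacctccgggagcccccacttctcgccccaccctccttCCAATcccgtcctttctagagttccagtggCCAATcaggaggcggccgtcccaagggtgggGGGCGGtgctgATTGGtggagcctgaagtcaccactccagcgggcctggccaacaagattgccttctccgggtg

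RefSeq windows were found for 8 of the 9 genes, all but Pex19, and numbered 12 because Pex5, Pex16 and Abcd3 have several. GGGCGG was present in 7 of the 12 windows (Pex5, Pex11a, Pex13, Pex14, Pex16 and Cat), against 35.7% of all 32851 windows in the table, and in Pex13 its matches overlap each other. The 7 include 2 Pex5 windows that overlap and share some of these matches. The 12 windows held from 44.3% to 79% G and C, against a median of 52.7% over all windows, and this was not allowed for. CCAAT was present in 4 of the 12 (Pex5, Pex16 and Cat; 37.4% of all windows), and the Cat window holds 4 copies. AGGTCA was found only in Cat among the 12 windows (16.3% of all), with its first base at -204 from the start, and its direct repeat spaced by 1 base, to which PPAR with RXR binds, in none of the 12 (0.0396%). Pex11a and Abcd3 held CCGGAA (14.9% of all) and Pex13 held TGACGTCA (1.79%). Matches to TATAAA were found in Pex14 and Pex16 (13.6%), and CACGTG (7.15%), the 10-base NRF1 motif (0.971%) and TGACNNNGC (12.4%) were found in 0 of the 12. A match of letters is not a binding site, and sequence beyond these windows was not examined.

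The neighbours of these genes on the chromosome were looked up as well. Pex11a ends 3053 bases from Plin1, which encodes the lipid droplet coat protein perilipin and is read from the same strand. Plin1 had 158 FPKM in FLAG, 7.91 FPKM in FLAG-CACUL1, 24.3 FPKM in sh-Luc and 113 FPKM in sh-CACUL1, so both genes were highest in FLAG, followed by sh-CACUL1. On the log2 scale Plin1 stood at -4.16 against the empty vector and at 2.18 against the luciferase hairpin, beside -0.84 and 1.68 for Pex11a. On its other side Wdr93 begins 31 bases away on the opposite strand and had between 0.285 and 0.659 FPKM. The closest measured genes that do not overlap Pex16, Mapk8ip1 at 2458 bases and Phf21a, had log2 ratios of 1.22 and 0.24 in FLAG-CACUL1 and -0.95 and -0.20 in sh-CACUL1, beside -1.63 and 2.05 for Pex16.

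To place the 9 genes within the organelle, 59 other peroxisome genes were listed, of which 52 were measured. In FLAG-CACUL1 10 of the 52 (19.2%, against 7.22% of all genes) were at least 2-fold below FLAG. Another 2 (3.85%, against 7.51%) were at least 2-fold above it, and the median log2 ratio was -0.16. In sh-CACUL1 13 of the 52 (25%, against 4.94% of all genes) exceeded sh-Luc by 2-fold or more. As far below it lay 2 (3.85%, against 16.4%), and the median was 0.15. These counts depended on scaling, with 20 above and 0 below under median-of-ratios scaling and 19 above and 1 below after quantile normalization. FLAG and sh-CACUL1 both exceeded the other lines in 20 of the 52 (38.5%), against 6 of the 9 and 9.93% of all genes. Of the 9 other peroxins measured, Pex10, a ubiquitin ligase that recycles PEX5, and Pex11g had log2 ratios of -1.41 and -1.80 in FLAG-CACUL1, both past 2-fold. Other import genes had smaller ratios. Pex6, an ATPase that helps to pull PEX5 back out of the membrane, stood at -0.69 against the empty vector and at 0.20 against the luciferase hairpin on the log2 scale. Pex7, the receptor for the second import signal, had 0.21 and -0.39. None of the 3 division genes measured (Dnm1l, Fis1 and Mff) was past 2-fold, and their median log2 ratio was 0.41 against the empty vector and -0.47 against the luciferase hairpin.

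Among the enzymes that PEX5 and its partners import, the β-oxidation list had the lowest median in FLAG-CACUL1. Of 15 genes measured 7 lay 2-fold or more below FLAG in FLAG-CACUL1 (7.22% of all genes) and 0 above it (7.51%). Their median log2 ratio was -0.87. In sh-CACUL1 3 were at least 2-fold above sh-Luc (4.94%) and 0 below it (16.4%), with a median of 0.32. The controls differed as well, with 6 at least 2-fold higher in FLAG than in sh-Luc (8.58%) and 0 lower (12.4%), and a median of 0.71. Scp2, a thiolase and sterol carrier, had 118 FPKM in FLAG, 37.1 FPKM in FLAG-CACUL1, 31.4 FPKM in sh-Luc and 73.6 FPKM in sh-CACUL1. Crat, a carnitine acetyltransferase found in peroxisomes and mitochondria, had 34.9, 16.6, 20.5 and 97.7 FPKM in the same order. Gnpat, which starts ether lipid synthesis, had log2 ratios of -1.52 and 1.38, beside 0.30 and -0.11 for its partner enzyme Agps. Of the membrane proteins, Pxmp2, a channel, had 0.632, 0.399, 1.45 and 19.7 FPKM, a log2 ratio of 3.07 in sh-CACUL1. Ephx2, an epoxide hydrolase, had 78.8, 46.7, 2.27 and 216 FPKM, a log2 ratio of 6.05 in sh-CACUL1. Its lowest value was in sh-Luc, as for Pex11a, but its highest was in sh-CACUL1, whereas that of Pex11a was in FLAG. The purine oxidase Xdh (-1.43 in sh-CACUL1) and the membrane protein Mpv17 (1.29 in FLAG-CACUL1, -0.89 in sh-CACUL1) had log2 ratios of the other sign.

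**Figure D4:**
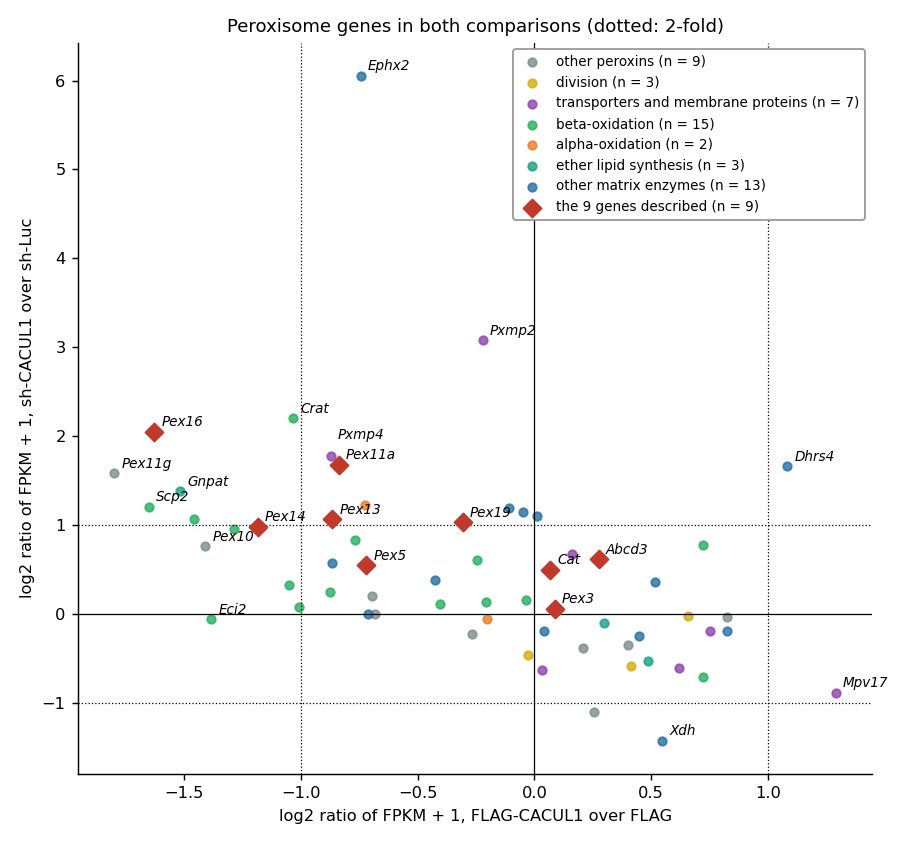
Log2 ratio of FPKM + 1 for FLAG-CACUL1 over FLAG (x axis) and sh-CACUL1 over sh-Luc (y axis) of the 9 genes (red diamonds) and 52 other peroxisome genes coloured by function, 1 library per line; dotted lines mark 2-fold. Of the 9 genes, 6 lie in the upper left part and Cat, Abcd3 and Pex3 right of 0, although Cat and Pex3 cross 0 under median-of-ratios scaling.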

How the data were processed

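Messenger RNA of 4 stable 3T3-L1 lines was sequenced by a company, 1 library per line. The authors deposited FPKM values for 13110 rows of RefSeq transcripts. The genome build was mm10 (GRCm38) per the submitters' processing notes. The aligner, the program that computed FPKM, the use of strand, the filters and the scaling between libraries are not given in the sources used here.

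Rows were named through GENCODE M21 (12914 rows) or RefSeq (149 rows), 47 rows had no symbol, 8 matched several, and rows sharing a symbol were summed, which left 13085 genes. The change is the log2 ratio of FPKM + 1, which understates changes of low genes, and the 2-fold cut-off of the study was used. Folds printed without a log2 scale are plain FPKM ratios. Depth was estimated from the steps of FPKM times length using single-transcript rows whose length was 3000 bases or more. Fragments per gene are FPKM times the mean transcript length divided by that step, with 95% Clopper-Pearson intervals for ratios and Poisson intervals for levels. Since each line had 1 sample, no test was made.

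Named genes are the 9 genes, Cacul1, up to 4 genes per list that were past 2-fold in either comparison, and the 5 genes most like Cat and most like the mean of the 9. Pex6, Pex7, Agps, the division genes and the neighbouring genes fall outside this rule and were chosen after their values were seen. Marker genes were named as whole lists of those measured or, for macrophages, by the leading gene, also beyond this rule. The 9 genes and all lists were chosen with earlier results of these data known. Alternatives were a pseudocount of 0.1 or none, at least 1 FPKM in all samples, quantile or median-of-ratios scaling, the highest row in place of the sum, a 3-fold cut-off and the other control. The scripts were tested on simulated data. Python 3.11.15, numpy 2.4.6, scipy 1.17.1, pandas 2.3.3 and matplotlib 3.10.9 were used.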

Additional observations from a re-analysis of the deposited data

How the results depend on the processing

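Each line had 1 library, so spread between cultures is unknown and every difference compares libraries. No paired analysis was possible because each line has a single sample and the lines share only the number 1. Depth limits Pex3 most, which had an estimated 185 fragments in FLAG.

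The 3-fold cut-off left 1 of the 9 genes lower in FLAG-CACUL1 (2.90% of all genes), 2 higher in sh-CACUL1 (1.93%) and 1 higher in FLAG than in sh-Luc (4.10%), and of the other peroxisome genes 2, 5 and 2, respectively. With the other control 1 of the 9 genes was past 2-fold in each comparison, and the median of the 9 was -0.23 in FLAG-CACUL1 but 0.66 in sh-CACUL1, while 2 other peroxisome genes were past 2-fold in FLAG-CACUL1. Under this exchange Pex11a changed direction in both comparisons, from -0.84 to 1.06 for FLAG-CACUL1 and from 1.68 to -0.22 for sh-CACUL1, and so did Pex3 (to -0.42), Cat (to -0.23) and Abcd3 (to -0.21) in FLAG-CACUL1 and Pex14 (to -0.08) in sh-CACUL1. In sh-CACUL1 the median of the 9 genes was 1.36 after quantile normalization and 1.41 after median-of-ratios scaling, and the latter gave 0.62 for FLAG over sh-Luc. The cause was not tested. Without a pseudocount 3775, 4799 and 4711 of all genes were past 2-fold in FLAG-CACUL1, sh-CACUL1 and FLAG over sh-Luc, against 1928, 2788 and 2750. With a pseudocount of 0.1 they were 3161, 4163 and 4120, and at 3-fold 663, 936 and 994. Of 180 single values of the 9 genes under these alternatives, 132 stayed within their counting interval, and 9 changed sign, 6 of them with the other control and 3 (Pex3 and Cat in FLAG-CACUL1) under another scaling. The 132 include all values under the highest row and the 1 FPKM minimum. These settings could not change them, since each gene has 1 row and more than 1 FPKM in every line. All values outside their interval came from quantile or median-of-ratios scaling or the other control.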

Other observations

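Peroxisomal catalase is not the only remover of hydrogen peroxide, and 8 of 9 other such enzymes listed were measured. Prdx6, a cytosolic peroxiredoxin, had 29.8 FPKM in FLAG, 79.3 FPKM in FLAG-CACUL1, 130 FPKM in sh-Luc and 24.2 FPKM in sh-CACUL1, the reverse of the arrangement in Pex16. Prdx5, which is found in peroxisomes, mitochondria and cytosol, had 761, 326, 130 and 118 FPKM. Both FLAG lines thus lay above both hairpin lines, and FLAG-CACUL1 was also below FLAG, at a log2 ratio of -1.22. The mitochondrial Prdx3 had 52.4, 43.7, 34.6 and 118 FPKM, with the highest value in sh-CACUL1 as for Cat. Prdx1 was 1.30 higher on the log2 scale in FLAG-CACUL1 than in FLAG. Of the 8 enzymes 2 were at least 2-fold higher (7.51% of all genes) and 1 lower (7.22%) in FLAG-CACUL1. In sh-CACUL1 1 was higher (4.94%) and 1 lower (16.4%).

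Of the receptors and coactivators listed, Pparg had 70.1 FPKM in FLAG, 12.3 FPKM in FLAG-CACUL1, 14.8 FPKM in sh-Luc and 61.8 FPKM in sh-CACUL1, the arrangement of Pex16. Rxra had 29.7, 42.5, 35.0 and 79.9 FPKM, with its lowest value in FLAG as in Cat. Ppargc1b had 6.11, 0.653, 1.34 and 2.67 FPKM.

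Over the 4 libraries and 9563 genes with at least 1 FPKM in each, the genes nearest to Cat in centred log2 FPKM were Ints4, Polr3gl, Sacm1l, Lrrc73 and Ccdc28b, at Euclidean distances from 0.0439 to 0.0901. Nearest to the mean of the 9 genes were Idh3b, Mtx2, Cox7c, Tcf7l2 and Psen2, at 0.0417 to 0.128. Within the 9 genes the closest pair was Abcd3 and Cat, at 0.238, and the farthest Pex3 and Pex16, at 1.93. With 4 libraries this likeness is a description only.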
